A study of Drosophila sechellia and Drosophila melanogaster and Drosophila simulans with 18 samples.

Results

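The data described here are the gene expression measurements made in adult females of *D. simulans* after exposure to dietary L-DOPA or to control food, which are 6 of the 18 RNA-seq libraries of a study of 3 *Drosophila* species. Flies of strain 14021-0251.195, 0 to 3 days after eclosion, were given instant medium with L-DOPA at 10 mg/ml or the same medium without it for 24 hr. Before that they were reared on cornmeal medium at 20° with 16 hr of light and 8 hr of dark. Each of the 3 libraries per food was made from a homogenate of 10 whole flies, and only 1 strain was used. *D. melanogaster* and *D. sechellia* females were treated the same way and are used here only for values side by side. All 15372 rows of the *D. simulans* table were taken as members, out of 50294 rows in the tables of the 3 species. The authors' deposited table gives each gene 1 FPKM per food, a read abundance corrected for gene length and sequencing depth, which Cuffdiff estimated from the 3 libraries together. The spread between libraries was therefore not seen, a single library could carry a combined value, and no test against replicate error was made. No SD or n is given for this reason. By the study's methods the mapped reads of each L-DOPA library were fewer than those of any control library, so depth and food cannot be told apart.

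L-DOPA is the amino acid that flies make from tyrosine with the tyrosine hydroxylase *ple*, and that *Ddc* converts to dopamine. Dopamine is both a transmitter and the source of quinones that harden and darken the cuticle. In this study L-DOPA was added to the diet because the fruit on which *D. sechellia* specializes holds it, and *D. simulans* is a generalist relative that does not depend on that fruit. The comparison of foods in *D. simulans* asks which genes a generalist expresses at another level after eating L-DOPA.

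On L-DOPA, antimicrobial peptide genes and the genes of starch and maltose digestion were the named genes that stood highest above their control levels. The attacin genes *AttA*, *AttB* and *AttC* and the cecropin gene *CecA1* were 14.8-, 7.28-, 8.36- and 7.12-fold higher, and 6 of 8 amylase and maltase genes were 2.56- to 3.74-fold higher. The only named gene at least 2-fold lower was *sala*. Most other genes were close to their control levels, since the central 95% of log2 changes ran from -0.60 to 0.65.

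Of the 15372 rows, 9897 had a status of OK in the authors' table, and 9514 of these reached an FPKM of 1 on L-DOPA, control food or both. Above 0 on both foods were 9501, and for these the ratio of the L-DOPA value to the control value was taken on the log2 scale, and values above 0 are those of genes higher on L-DOPA. The median log2 change was -0.08 and the quartiles were -0.23 and 0.07, and 35.1% of the genes were above 0. A gene was counted as different between foods by size alone, at 2-fold or more. By this rule 114 genes (1.2%) stood higher on L-DOPA, and 56 (0.589%) stood lower. Another 12 rows were listed at 0 on L-DOPA and 1 was listed at 0 on control food, and no fold was computed for these. Of the 12, 9 had numbered symbols, with a control FPKM of up to 48.8, and 3 were miRNA genes.

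**Figure D1:**
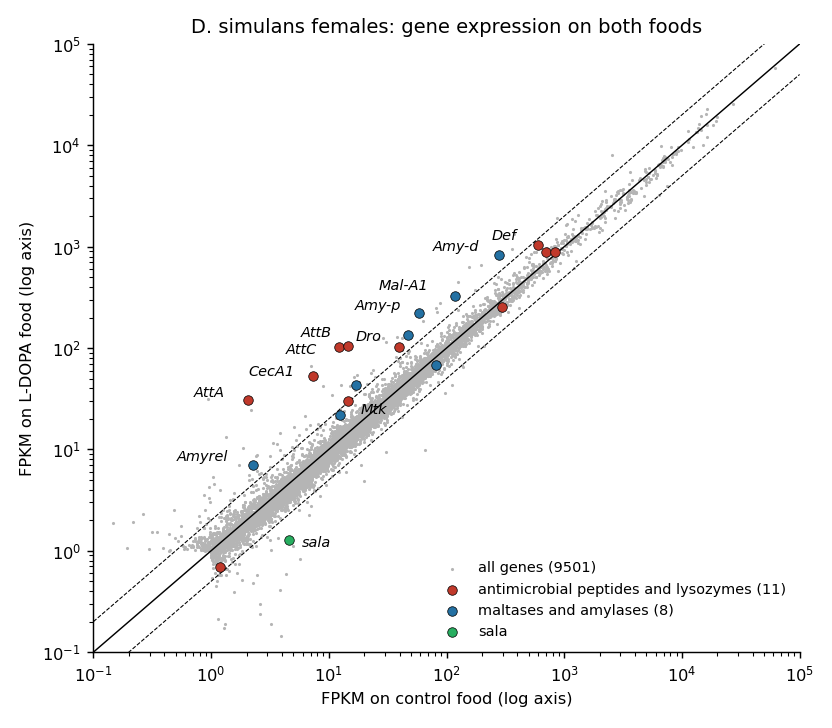
FPKM of each gene on L-DOPA food (y) against control food (x) in *D. simulans* females, both on log axes, with the diagonal solid and 2-fold limits dashed. Of the 9501 genes, 9 with an FPKM under 0.1 on one food lie outside the axes. The 4 genes *AttA*, *AttB*, *AttC* and *CecA1* lie farthest above the upper limit among the named genes, and *sala* lies below the lower one.

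The table gives 14820 rows a numbered symbol and 552 another one, of which 432 are not miRNA or other small RNA genes. Of these 432 named genes, 322 were among the 9501 genes with a fold, and 134 of them were above a log2 change of 0 with a median of -0.05. At 2-fold or more, 13 of the 322 were higher on L-DOPA and 1 was lower. The remaining 101 higher genes were 100 with numbered symbols and *mir-989*, and the remaining 55 lower genes all had numbered symbols. These were counted and not identified here.

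The antimicrobial peptide genes encode small secreted proteins that kill bacteria or fungi, and the following account of their control is known from *D. melanogaster*. The Imd pathway, which ends in the factor encoded by *Rel*, induces attacin, cecropin and *Dro* (drosocin) genes upon infection. The Toll pathway, which acts through *Dif* and *dl*, induces *Drs* (drosomycin). Peptidoglycan recognition proteins (PGRPs) detect the bacterial cell wall at the start of the Imd pathway, and some of them, such as *PGRP-SC1b* and *PGRP-SC2*, break it down.

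The largest change among named genes was that of *AttA* (FBgn0046918, ASM75419v3 chromosome 2R from 11337740 to 11338536), which encodes an attacin directed against Gram-negative bacteria. Its FPKM was 30.6 on L-DOPA and 2.07 on control food, a log2 change of 3.89. Its neighbour *AttB* was at 105 FPKM on L-DOPA and 14.5 on control food (log2 change 2.86). *AttC*, which lies apart on the same arm, was at 103 FPKM on L-DOPA and 12.3 on control food (3.06). The 3 attacin genes were thus at 2.07 to 14.5 FPKM on control food and at 30.6 to 105 FPKM on L-DOPA. The copies are close in sequence, and how reads that fit more than 1 copy were divided is not given in the sources used here.

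*CecA1*, the cecropin gene on 3R, was at 52.4 FPKM on L-DOPA and 7.36 on control food (log2 change 2.83). *Dro* was at 103 and 39.5 FPKM (1.38) and *Mtk*, the gene of the peptide metchnikowin, at 29.9 and 14.6 FPKM (1.03), each with the L-DOPA value first. The defensin gene *Def* was already high and was at 1041 FPKM on L-DOPA and 604 on control food (0.78), below the 2-fold limit. It shares its span with other rows.

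The genes of antifungal drosomycins were near their control levels. *Drs* was at 879 FPKM on L-DOPA and 834 on control food (log2 change 0.08), *dro5* was at 888 and 695 (0.35), and *dro4* was at 251 and 297 (-0.24). The related *dro3*, at 0.688 and 1.19 FPKM, was the lowest of the list (-0.79) and is near the FPKM minimum. Of 17 genes of this list with a row, 11 had a fold, and 6 of these were at least 2-fold higher (1.2% of all genes were), none was 2-fold lower, and the median was 1.03 against -0.08 over all genes. The other 6, *CecB*, *CecC*, *Anp*, *dro1*, *dro2* and *dro6*, did not pass the status or FPKM minimum. No lysozyme gene had a matching symbol. The list was chosen with earlier results of these data known, so its count beside that of all genes is a description only.

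**Figure D2:**
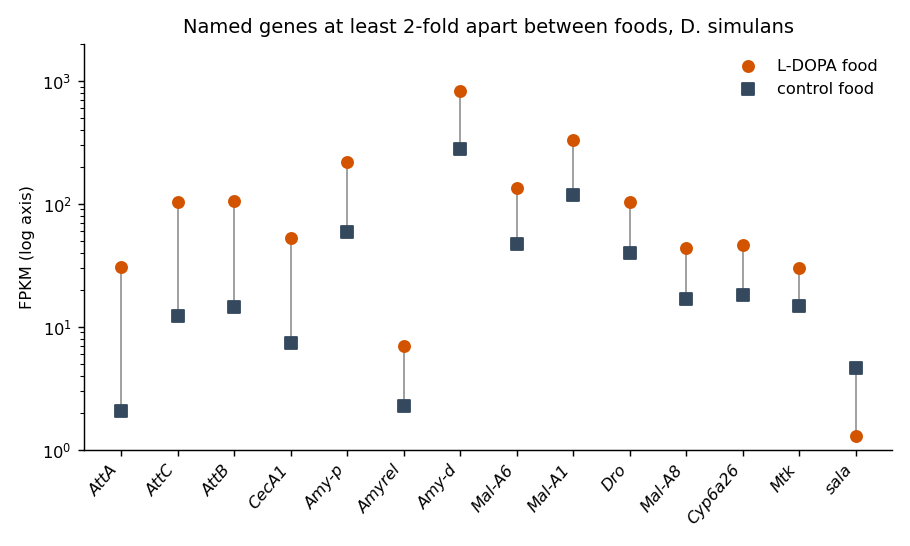
FPKM on L-DOPA food (circles) and on control food (squares) for the 14 named genes at least 2-fold apart, on a log axis, with a line joining the 2 values of a gene. The 13 genes from *AttA* (30.6 on L-DOPA, 2.07 on control food) to *Mtk* (29.9 on L-DOPA, 14.6 on control food) are higher on L-DOPA, and *sala* (1.28 on L-DOPA, 4.61 on control food) is lower.

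None of the immune recognition and signalling genes reached 2-fold. The list is not confined to genes upstream of these peptides, since it also holds *Dcr-2*, *AGO2*, *r2d2* and *hop*. Of 28 genes with a fold, out of 30 in the table, none was 2-fold apart in either direction. Over all genes 1.2% were 2-fold higher and 0.589% lower, so that none of 28 is close to the share over all genes. The median log2 change was 0.02. Above the median gene were 19 of the 28, and 9 were below it. *Rel* was at 12.8 FPKM on L-DOPA and 12.0 on control food (log2 change 0.09), and *imd* was at 22.8 and 20.0 (0.19). *Dif* was at 9.40 FPKM on L-DOPA and 7.90 on control food (0.25), and *cact*, whose product holds back the Toll pathway factors, was at 172 and 159 (0.11). The highest in the list was *nec*, which encodes a serpin that restrains Toll signalling, at 107 FPKM on L-DOPA and 68.6 on control food (0.65). Its row shares a span with others, so that its reads may not be its own. Among recognition genes the highest was *PGRP-SB1* (15.9 and 10.3 FPKM, 0.63), followed by *PGRP-SC1b* (384 and 272 FPKM, 0.50) and *PGRP-SC2* (901 and 739.5 FPKM, 0.28), which had the highest FPKM of the list. The lowest was *Tep6*, a thioester protein gene, at 2.40 FPKM on L-DOPA and 3.24 on control food (-0.44). As all libraries are from whole flies, a higher level of a transcript per cell and more cells that make it cannot be told apart here or in any of the results below.

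Dietary starch is cut to maltose by amylases, and maltases release glucose from it, both in the gut. The 3 amylase genes in the table were all at least 2-fold higher on L-DOPA. *Amy-p* was at 220.2 FPKM on L-DOPA and 58.9 on control food (log2 change 1.90), and *Amy-d* was at 827 and 281 FPKM (1.56). *Amyrel*, a diverged relative, was much lower at 7.03 and 2.26 FPKM (1.64) and shares a span with other rows. *Amy-p* and *Amy-d* are close copies, and reads could have been divided between them in either direction.

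The maltase genes in the *Mal-A* group followed. *Mal-A1* (FBgn0181944, chromosome 2R from 5149572 to 5154081) was at 329 FPKM on L-DOPA and 117 on control food (log2 change 1.49), in a row that shares its span with another. *Mal-A6* was at 135 and 46.8 FPKM (log2 change 1.53), and *Mal-A8*, which shares its span, at 43.4 and 16.9 FPKM (1.36). The *Mal-B* genes on 2L, which share a span of overlapping rows, did not reach 2-fold. *Mal-B1* was at 22.0 FPKM on L-DOPA and 12.5 on control food (0.82), while *Mal-B2* was at 67.6 and 81.4 (-0.27) and was the only member of the list below its control level. Of the 8 maltase and amylase genes, 6 were at least 2-fold higher, where 1.2% of all genes were, and the median log2 change was 1.51. This list too was chosen with earlier results of these data known, and its count is a description only.

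Some of the genes at least 2-fold higher lay next to each other. When genes in the same direction within 10 kb were joined, 35 of the 114 higher genes formed 14 clusters, and none of the 56 lower genes lay within 10 kb of another. How many of all measured genes lie this close to another was not counted, so these counts have no background beside them. The lower set is also smaller, with a median of the mean FPKM of 1.73 against 9.43 for the higher set. Rows that share a span are neighbours by construction, and 45 of the 114 share one with some other row. Without such rows, a check added after the data were seen, 23 of 69 higher genes formed 9 clusters, and none of 33 lower genes had such a neighbour. The largest cluster, on 2R from 5149572 to 5258698, held 5 genes, which were *Mal-A1*, *Mal-A6*, *Mal-A8* and 2 with numbered symbols. Most of its length is the span of *Mal-A8* (from 5173010), which that row shares with other rows. All 5 are among 10 measured genes that start within this span, of which 9 were above 0 and the lowest was at a log2 change of -0.09. *Dro*, *AttA* and *AttB* lay together in 4.10 kb on 2R, with no other measured gene between them, and *Amy-p* and *Amy-d* in 6.34 kb. The other clusters had only numbered symbols, and the one with the most genes held 4, on 3R from 20605841 to 20622762. Neighbouring genes can be tandem copies that share reads, which was not tested. Of the 14 named genes past 2-fold 12 lie on 2R, most of them attacin, amylase and *Mal-A* genes. The share of all named genes that lie on 2R was not counted. Of all higher genes 35 lie on 2R, 1.77% of the measured genes there, and 36 on 3R (1.55%). There were 15 on 2L (0.887%), 12 on 3L (0.675%), 11 on X (0.720%) and 0 of 72 genes on chromosome 4. Unplaced scaffolds had the highest share, with 5 of 135 genes (3.70%).

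*Cyp6a26*, a cytochrome P450 gene, was at 46.0 FPKM on L-DOPA and 18.1 on control food (log2 change 1.34). P450 enzymes oxidize foreign and internal compounds. The row shares its span with another gene. Of the 5 genes of this detoxification list with a fold, only *Cyp6a26* was past 2-fold (1.2% of all genes were 2-fold higher). The others were between -0.15 and 0.25. *GstD1*, a glutathione S-transferase gene with the highest FPKM of the list, was at 574 on L-DOPA and 637 on control food (-0.15). The study singled out the carboxylesterase gene *Est-6* for toxin resistance, partly from its rise in *D. sechellia* and a knockdown in *D. melanogaster*. Its log2 change was 1.15 in *D. sechellia* and 0.16 in *D. melanogaster*. In *D. simulans* *Est-6* was at 119 FPKM on L-DOPA and 91.9 on control food. Its change of 1.30-fold was ranked 37 from the top among the 322 named genes. No gene had the symbol *eloF* in this table.

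The genes that handle L-DOPA itself and the pigments made from it were near their control levels. *Ddc*, whose enzyme turns L-DOPA into dopamine, was at 15.7 FPKM on L-DOPA and 17.0 on control food (log2 change -0.12). *Dat*, which encodes an enzyme that acetylates dopamine, was at 112 and 97.7 FPKM (0.19), the highest level in the list. The ebony gene *e*, which encodes the enzyme that couples dopamine to beta-alanine, was at 6.22 and 6.56 FPKM (-0.08), and *y*, a gene of black pigmentation, was at 1.19 and 1.57 FPKM (-0.40). The rows of *Ddc*, *Dat* and *y* share their spans with other rows, and *y* is near the FPKM minimum. The table has no row under the symbol *ple*.

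The ends of that list were eye pigment genes. *ry*, which encodes xanthine dehydrogenase, was highest, at 4.87 FPKM on L-DOPA and 3.60 on control food (0.44). *w*, which encodes a pigment transporter, was lowest, at 2.65 FPKM on L-DOPA and 3.71 on control food (-0.48). None of the 9 genes with a fold was 2-fold apart, where 1.2% of all genes were 2-fold higher and 0.589% lower. Above the median gene were 5 of the 9, and 4 were below it. The list median of -0.08 is that of all genes.

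The odorant-binding protein genes encode secreted carriers of small molecules, some found in the antennae and others in the gut or body. Of 48 matched by symbol, 27 had a fold, and 19 of these were above the median gene, with a list median of 0.17. None of the 27 was 2-fold apart, where 1.2% of all genes were 2-fold higher and 0.589% lower. The gene *Os-E*, of the same family, was not matched by its symbol and is not in these counts. It was at 16.8 FPKM on L-DOPA and 20.6 on control food (-0.30). *Obp56e* was highest, at 439 FPKM on L-DOPA and 253 on control food (log2 change 0.79). *Obp99c* had the highest level, at 3185 FPKM on L-DOPA and 2477 on control food (0.36), and *Obp99a* was lowest, at 688 and 914 FPKM (-0.41). The metallothionein genes, whose products bind copper and other metals, were all 4 above the median gene, with 1 apart from the rest. *MtnC* was at 843 FPKM on L-DOPA and 519 on control food (0.70), while *MtnA*, the most abundant, was at 2479 and 2506 FPKM (-0.02), and *MtnB* and *MtnD* were at 0.07 and 0.11.

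Central carbon metabolism genes were all slightly above their control levels. All 8 with a fold were above 0, where 35.1% of all genes were, and their median log2 change was 0.18. *Adh*, the alcohol dehydrogenase gene, was highest, at 2807 FPKM on L-DOPA and 2107 on control food (0.41), though its row shares a span with *Adhr* and another gene. *Tpi*, which encodes a glycolytic enzyme, had the highest FPKM, at 3723 on L-DOPA and 3166 on control food (0.23), and *Pgd* was lowest (202 and 201 FPKM, 0.01). None approached 2-fold. The size of these differences against the spread between libraries is unknown.

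**Figure D3:**
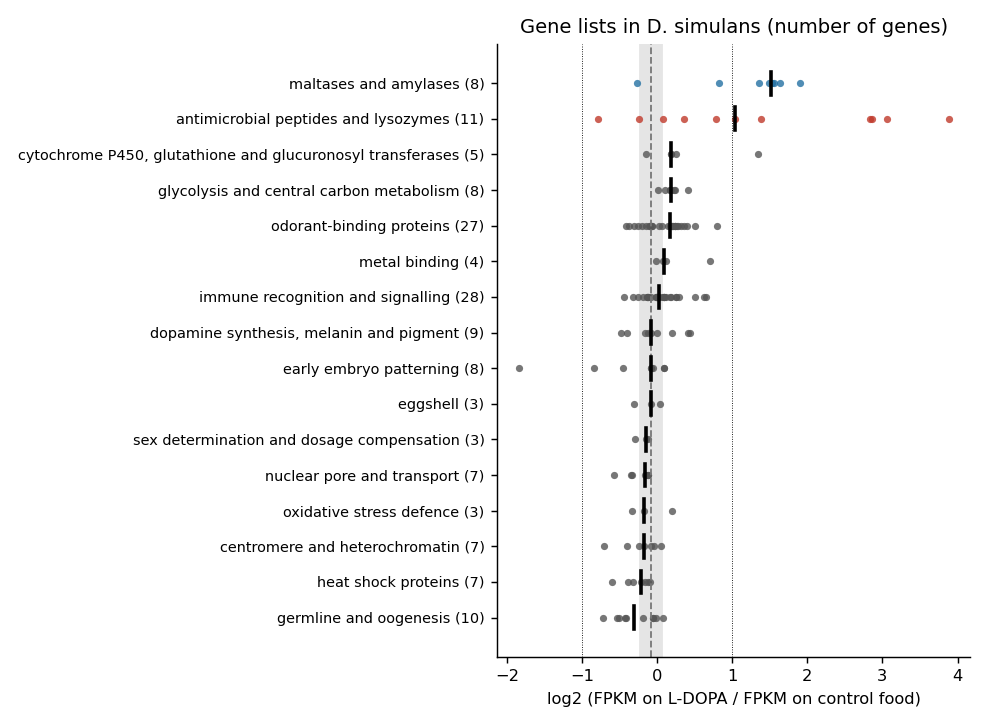
Log2 of FPKM on L-DOPA over control food for each gene (points) of the 16 lists with at least 3 measured genes, with the list median as a black bar and the number of genes in brackets. The grey band spans the quartiles of all 9501 genes (-0.23 to 0.07), the dashed line is their median, and the dotted lines mark 2-fold. The maltase and amylase list (median 1.51) and the antimicrobial peptide list (1.03) stand to the right of all others.

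Other lists lay slightly below their control levels. The heat shock protein genes, which encode chaperones, were all lower, 7 of 7, where 64.9% of all genes were lower, with a median log2 change of -0.22. *Hsp70Ab* was lowest (23.1 FPKM on L-DOPA and 35.1 on control food, -0.60), *Hsp70Aa* was highest (41.0 and 44.1 FPKM, -0.10), and *Hsc70-4*, the constitutive member, had the highest FPKM (1768 and 2214, -0.32). The *Hsp70* genes are near-identical copies, so their split is uncertain. Among the genes of defence against reactive oxygen, superoxide dismutase gene *Sod* was at 1196 FPKM on L-DOPA and 1505 on control food (-0.33), thioredoxin gene *Trx-2* at 302 and 340.5 FPKM (-0.17) and catalase gene *Cat* at 215 and 188 FPKM (0.19).

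The germline and oogenesis genes had the lowest median of the 16 lists with at least 3 measured genes, at -0.31. Of the 10 genes, 6 were below the median gene and 4 above. None of the 10 was 2-fold apart, where 1.2% of all genes were 2-fold higher and 0.589% lower. *mei-218*, a meiotic recombination gene, was lowest, at 1.16 FPKM on L-DOPA and 1.90 on control food (log2 change -0.72). *otu* was at 13.7 and 19.5 FPKM (-0.51), *nos*, which patterns the embryo from the oocyte, at 59.7 and 80.2 FPKM (-0.42), and *bam*, which starts differentiation of the germline stem cell daughter, at 8.09 and 10.8 FPKM (-0.42). *mus209*, whose product is the sliding clamp (PCNA) of the replication fork, had the highest FPKM, at 340 on L-DOPA and 388 on control food (-0.19). *Dcr-1*, the microRNA processing gene, was the only one above 0 (6.52 and 6.20 FPKM, 0.07).

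The yolk protein gene *Yp2*, which is expressed in fat body and ovarian follicle cells, stood on the other side of 0. It was at 22707 FPKM on L-DOPA and 16329 on control food (log2 change 0.48), with a row that shares its span with others. The eggshell list held *dec-1*, *Cp16* and, by its symbol only, the centriole gene *Cp110*, and all 3 lay between -0.30 and 0.04. Nuclear pore and transport genes were lower in 7 of 7 cases, where 64.9% of all genes were lower, with a median of -0.16. *Ntf-2*, which encodes a nuclear transport factor, was lowest of these at 23.0 FPKM on L-DOPA and 34.4 on control food (-0.58), *Nup133* was highest (-0.12) and *Nup75* had the highest FPKM (37.6 and 41.1). Centromere and heterochromatin genes were 3 above and 4 below the median gene, with *cid*, the centromere histone gene, lowest (3.47 and 5.67 FPKM), *HP1B* highest (72.6 and 69.9 FPKM, 0.06) and *Oxp* at the highest FPKM (96.6 and 99.2, -0.04). The sex determination genes *Sxl* (4.68 and 5.75 FPKM, -0.30), *fru* (1.80 and 2.01 FPKM, -0.15) and *tra* (95.3 and 104 FPKM, -0.13) were all below 0, as were 64.9% of all genes.

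*sala*, a gene that lies next to *spalt* in *D. melanogaster*, had the lowest log2 change of the named genes (-1.84). It was at 1.28 FPKM on L-DOPA and 4.61 on control food (FBgn0012892, chromosome 2L from 11139581 to 11140343). *Sry-alpha*, which is required for the embryo to form its first cells, was at 1.75 FPKM on L-DOPA and 3.13 on control food (log2 change -0.84). Both were low in level on both foods. Of 8 early embryo patterning genes with a fold, *sala* was the only one 2-fold apart (0.589% of all genes were 2-fold lower), and 4 were above the median gene and 4 below. *Sry-delta*, a regulator with the highest FPKM in the list, was at 24.1 on L-DOPA and 22.6 on control food (0.09).

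The labels of sex and tissue were checked against marker genes. Of 11 listed markers of the adult female, 6 have a row, and all 6 were measured, at 8.09 (*bam*) to 22707 FPKM (*Yp2*) on L-DOPA and 10.8 to 16329 FPKM on control food. Of 12 male markers, 10 have a row and none passed the minimum, with at most 0.531 FPKM on L-DOPA and 0.673 on control food, and 4 listed at 0 on both. In a wider list of 19 male reproductive genes, *Acp54A1* alone had a fold, at 65.0 FPKM on L-DOPA and 50.5 on control food. The gut markers with a row, *Amy-d*, *Amy-p* and *Mal-A1*, are also members of the digestion list, and their summed level was 1377 FPKM on L-DOPA and 457 on control food. No other gut gene was among the markers with a row, and whether the amount of gut tissue has a part in the digestion result was not tested. For the antimicrobial peptides, the only blood cell marker with a row was *Sr-CI*, at 1.503 FPKM on L-DOPA and 1.09 on control food (log2 change 0.46) in a row that shares its span with others, and its part in that result was not tested.

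The share of genes past 2-fold differed between expression levels. Among 1473 genes with a mean FPKM of up to 3, 34 were higher and 38 lower, while among the 5431 with a mean FPKM of at least 10, 56 (1.03%) were higher and 9 (0.166%) lower. The median of the mean FPKM was 9.43 for the higher genes and 1.73 for the lower genes, against 13.0 for all. Above 300 FPKM 7 of 490 genes were higher and none lower. The median log2 change was -0.12 for genes of 3 to 10 FPKM and -0.02 above 300. On the X chromosome 71.5% of 1527 genes were below 0 with a median of -0.13, against 64.0% of 7767 genes with a median of -0.07 on arms 2L, 2R, 3L and 3R. On chromosome 4, 41.7% of 72 genes were below 0 with a median of 0.03.

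**Figure D4:**
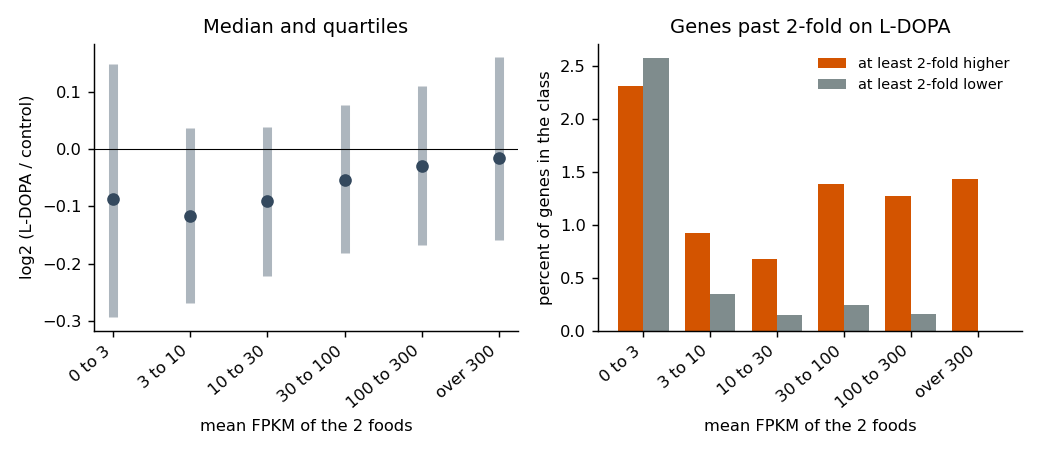
Log2 change on L-DOPA (left; points are medians, bars the quartiles) and percent of genes at least 2-fold higher or lower (right) in 6 classes of mean FPKM. Lower genes past 2-fold are 2.58% of the class up to 3 FPKM and at most 0.347% of each class above it.

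Genes with numbered symbols made up most of those past 2-fold. Where the FPKM was 1 or more on L-DOPA and on control food, 85 genes were higher and 24 lower, and 15 and 3 of these were 4-fold apart. The largest were GD11417 on 2R (24.4 FPKM on L-DOPA and 2.20 on control food, log2 change 3.47) and GD25944 (13.3 and 1.33 FPKM, 3.32). The lowest were GD17764 on 3R (9.91 and 65.6 FPKM, -2.73) and GD19413 (1.11 and 4.97 FPKM, -2.16). These were named for their size, and no gene name was given to them.

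The same symbols were looked up in the tables of the other species, which were normalized separately and come from other libraries, genome builds and gene models. Differences between species were not tested. *D. melanogaster* shared 359 such symbols, of which 268 were measured in both. Of these, 154 had the same direction (57.5%), and 51% of all genes in that table were above 0. Among the 268 genes, 113 were higher on L-DOPA in *D. simulans* and 135 in *D. melanogaster*. In *D. sechellia* 97 genes of 158 shared symbols were measured in both. Of these, 45 had the same direction (46.4%), and 58% of all genes in that table were above 0. Among the 97 genes, 41 were higher on L-DOPA in *D. simulans* and 59 in *D. sechellia*. The share above 0 in a table is not a baseline for agreement in direction between tables. No such baseline was computed, so neither count is read as an excess or a lack of agreement. Across the genes measured in both tables, Pearson's r of the log2 changes was -0.09 and Spearman's rho 0.13 with *D. melanogaster*. These coefficients differ in sign, so that no direction is read from them. With *D. sechellia* r was -0.11 and rho -0.05. These are descriptions only, since genes of a table share its libraries. Of the 13 *D. simulans* genes past 2-fold that *D. melanogaster* also had, 8 had the same direction there and 1, *sala*, was also past 2-fold (1.28 and 4.61 FPKM in *D. simulans*, 1.53 and 3.76 in *D. melanogaster*, L-DOPA first).

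Most of the antimicrobial peptide genes that could be compared were on opposite sides of 0 in *D. simulans* and *D. melanogaster*. Of the 11 with a fold in *D. simulans*, 8 were measured in *D. melanogaster*. There 6 of the 8 were lower on L-DOPA, in a table where 51% of all genes were above 0. At least 2-fold lower were 2 (0.936% of all genes in that table were). *AttA* was at 7.27 FPKM on L-DOPA and 13.2 on control food in *D. melanogaster*, *AttB* at 2.83 and 9.97, *AttC* at 4.02 and 16.5 and *CecA1* at 7.07 and 11.2. In *D. sechellia* only *CecA1* of the list could be compared, at 314 FPKM on L-DOPA and 1138 on control food (log2 change -1.86, where 6.3% of all genes were at least 2-fold lower). *Mtk* and *Drs* were above 0 in both *D. simulans* and *D. melanogaster* (*Mtk* at 0.20 and *Drs* at 0.24 in *D. melanogaster*).

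For the digestion genes the direction was mostly shared with *D. melanogaster*. All 6 amylase and *Mal-A* genes were higher on L-DOPA in both, where 35.1% of all genes were in *D. simulans* and 51% in *D. melanogaster*. Their log2 changes were 1.36 to 1.90 in *D. simulans* and 0.52 to 0.99 in *D. melanogaster*. In *D. melanogaster* none was at least 2-fold higher (1.18% of all genes were). *Amyrel* was near the FPKM minimum there, at 1.09 FPKM on L-DOPA and 0.687 on control food. The other two members of the list had opposite directions in these tables, with *Mal-B1* at 0.82 in *D. simulans* and -0.26 in *D. melanogaster*, and *Mal-B2* at -0.27 and 0.03 (0.31 in *D. sechellia*). In *D. sechellia* *Mal-A1* was at 679 FPKM on L-DOPA and 329 on control food (1.04, where 5.22% of all genes were at least 2-fold higher), while *Amy-p* (40.6 and 55.5 FPKM, -0.45), *Amy-d* (23.3 and 35.7 FPKM, -0.62) and *Amyrel* (13.1 and 23.9 FPKM, -0.87) were lower on L-DOPA. *Yp2*, higher on L-DOPA in *D. simulans*, was lower in *D. melanogaster* (log2 change -0.23) and in *D. sechellia* (-0.78).

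**Figure D5:**
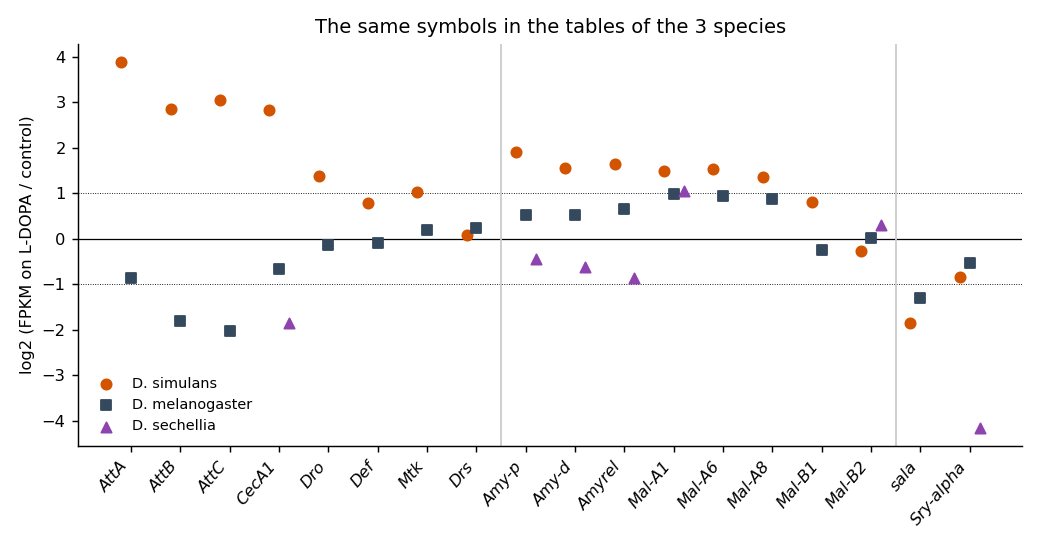
Log2 of FPKM on L-DOPA over control food for 18 symbols in *D. simulans* (circles), *D. melanogaster* (squares) and *D. sechellia* (triangles, where the table has a measured gene of that symbol), with dotted lines at 2-fold. Antimicrobial peptide genes are at the left, digestion genes in the middle and the 2 early embryo genes at the right. The attacin genes and *CecA1* are above 2.8 in *D. simulans* and below 0 in *D. melanogaster*, and all 6 amylase and *Mal-A* genes are above 0 in both.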

How the data were processed

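RNA-seq reads of *D. simulans* females (3 libraries per food) were, by the study's methods, aligned with Bowtie2 to ASM75419v3 and quantified with Cuffdiff under geometric normalization and gene length correction. Versions are not given in the sources used here. The labels name only BDGP6 as genome build. The authors' deposited FPKM values are 1 per gene and food, combined over the libraries, so depth per gene is unknown. The tables also hold the authors' own fold changes, test scores, p-values and q-values, which were not used.

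Log2 changes were computed without a pseudocount for rows with status OK, values above 0 on both foods and an FPKM of 1 or more on at least one. Genes were counted at 2-fold. Where genes overlap, the table gives the span of the group, and starts are given here counted from 1. Of the 9501 genes with a fold, 3946 share a span with another row, and not every such gene is marked in the text. The members and 29 gene lists were chosen with earlier results of these data known, and 16 lists had the 3 measured genes needed for a description. Named are, apart from numbered symbols and small RNA genes, the genes past 2-fold, the highest, lowest and most abundant of each list, *Est-6*, *Mal-A1* and the markers. Others were named after their values were seen, among them the further members of each list. Lists with no matching symbol were Turandot peptides, gut serine proteases, chemosensory receptors, cuticle, histones and mitochondrial genes. The counting was tested on simulated data. Alternatives were other FPKM minimums, centring on the median gene, a pseudocount of 1, leaving out small RNA genes or rows that share a span, and 1.5- and 4-fold limits. Python 3.11.15, numpy 2.4.6, pandas 2.3.3 and matplotlib 3.10.9 were used.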

Additional observations from a re-analysis of the deposited data

How the results depend on the processing

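The count of genes at least 2-fold higher on L-DOPA in *D. simulans* (114) was 65 with an FPKM minimum of 10 in place of 1, 69 without rows that share a span, 288 at 1.5-fold and 26 at 4-fold. The count of lower genes (56) was 24 where both foods had to reach 1, 10 with the minimum of 10, 32 with a pseudocount of 1, 33 without rows that share a span, 256 at 1.5-fold and 23 at 4-fold. The causes were not tested, except that the stricter minimums and the span filter leave fewer genes (9246, 5610 and 5555 of 9501). The share of genes past the limit that were higher was 67.1%, against 78.0% and 86.7% with the 2 stricter minimums, 73.2% after centring on the median gene and 52.9% at 1.5-fold. The median of the antimicrobial peptide list (1.03) was 1.21 with either stricter minimum, which leaves out *dro3*, and 0.91 with no minimum, which adds *CecC*. The median of the maltase and amylase list (1.51) was 1.40 with a pseudocount of 1. Each named gene past 2-fold stayed past it under every minimum that kept it, the pseudocount and centring, except *Mtk*, which was at 0.98 with the pseudocount. The medians of the dopamine and early embryo lists turned from -0.08 to 0.04 and 0.09 with the minimum of 10, under which 92 genes (of 154 genes compared) had the same direction in *D. melanogaster* and 28 (of 64) in *D. sechellia*. The count of higher genes within 10 kb of another (35) was 23 without rows that share a span. No paired analysis was possible because each value combines the 3 libraries of a food. For the same reason no library could be left out, and how far 1 library carries any value is not known.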

Other observations

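Genes of the Enhancer of split complex, which encode repressors and other targets of Notch signalling, were looked at after their values were seen. The *D. simulans* table has 11 of them on 3R from 21320074 to 21363704, and 7 had a fold. Of these 6 were lower on L-DOPA, where 64.9% of all genes were, and 1 was higher, with a median log2 change of -0.57. *m4* was at 0.995 FPKM on L-DOPA and 1.84 on control food (-0.89), *HLHmgamma* at 1.25 and 2.25 (-0.85), *malpha* at 2.49 and 4.27 (-0.78) and *HLHm7* at 1.02 and 1.52 (-0.57). The abundant *m1* was at 86.1 FPKM on L-DOPA and 97.2 on control food (-0.17), and *HLHmbeta* at 26.8 and 22.0 (0.28). *HLHm3* was at 4.86 FPKM on L-DOPA and 5.20 on control food (-0.10). *m4*, *HLHmgamma*, *malpha* and *HLHm7*, which had the largest changes, also had the lowest FPKM of the 7. Whether level has a part in this was not tested. None of the 7 was 2-fold apart, where 1.2% of all genes were 2-fold higher and 0.589% lower.

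Genes of lists with fewer than 3 measured members were also looked up. *Thor*, which encodes an inhibitor of translation initiation that responds to nutrient state, was at 1336 FPKM on L-DOPA and 1019.5 on control food (log2 change 0.39). The clock gene *tim* was at 9.78 and 8.45 FPKM (0.21). *Desat1*, which encodes a fatty acid desaturase, was at 706 and 785 FPKM (-0.15), and *Desat2* at 0.880 and 1.27 FPKM (-0.53). The ribosomal protein genes *RpL32* and *RpS18* were at -0.03 and -0.07. *Ace*, the acetylcholinesterase gene, was at 1.19 FPKM on L-DOPA and 0.760 on control food (0.65).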
